A study of Mus musculus with 54 samples.

Results

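Transcripts of the tumor suppressor p53 and of 9 genes known as its transcriptional targets were followed through the wall of single mouse ovarian follicles. The 10 genes, chosen by symbol, were Trp53, Mdm2, Cdkn1a, Ccng1, Btg2, Bax, Bbc3, Phlda3, Trp53inp1 and Gdf15, and all 10 were found among the 25149 genes of the expression tables. The other known targets and regulators of p53 described further on came from lists written for this pathway.

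p53 is a DNA-binding transcription factor that is held at low protein levels by the ubiquitin ligase Mdm2 and is stabilized when DNA damage or other stress interrupts that degradation. Once stable, it raises genes that stop the cell cycle, such as Cdkn1a, genes that promote apoptosis, such as Bax, and Mdm2 itself, which closes a feedback loop. Several of these genes also answer to other signals. In granulosa cells, Cdkn1a is known as a gene of the cell cycle exit that accompanies luteinization, the change by which follicle cells become progesterone-producing luteal cells.

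Follicles were isolated enzymatically from CD-1 female mice aged 14-16 days, grown in alginate hydrogel for 8 days, and then kept for 12 h in maturation medium with or without human chorionic gonadotropin (hCG), a hormone that stands in for the luteinizing hormone surge. Each follicle wall was cut into a ruptured and an unruptured side, and a Smart-Seq2 library was made from each piece, which gave 54 libraries. Post-hCG, the sides were those seen to rupture (ruptured post-hCG, n = 13) or not (unruptured post-hCG, n = 12). Without hCG no follicle had ruptured, so these sides were predicted from morphology and are called putative ruptured (n = 14) and putative unruptured (n = 15). By its label the tissue is a cumulus-oocyte complex, but in the study's methods that complex was taken out of the wall pieces. All 4 groups shared the strain, the culture and the maturation medium apart from hCG. The labels do not tie libraries to mice or to follicles, so sides cut from the same follicle could not be paired and were tested as independent. The p-values measure the spread between these pieces, and a difference in bulk pieces cannot separate more cells of a type from more RNA per cell.

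Library totals lay between 1497138 and 2834794 estimated counts. No 2 libraries of a group agreed within sampling noise. All 10 oocyte markers had group medians under 1 TPM in the 4 groups, although their sum reached 204 TPM in 1 putative unruptured library. The 10 granulosa markers summed to 1573 to 7668 TPM (median 4070) on the putative unruptured side, 5911 to 19456 TPM (median 13150) on the putative ruptured side, 989 to 2200 TPM (median 1564) on the unruptured side post-hCG and 874 to 1646 TPM (median 1338) on the ruptured side post-hCG. The 11 markers of smooth muscle and stroma summed to 18.6 to 580 TPM (median 158), 2.45 to 170 TPM (median 22.2), 11.9 to 146 TPM (median 44.7) and 1.07 to 13.7 TPM (median 2.57) in the same order. Between the putative sides 8 of 9 tested granulosa markers were higher on the ruptured side and 5 of 7 stromal markers lower, and post-hCG 3 of 6 were higher and 5 of 5 lower. The 9 theca markers had median sums of 814, 547, 6779 and 7491 TPM in the same order of groups. With hCG, 3 of 9 tested granulosa markers rose and 6 fell on the unruptured side (25.3% and 27.6% of all genes). On the ruptured side 1 of 9 rose and 6 fell (29.6% and 30.4% of all genes). The sums thus do not give the number of cells of a type. These marker sums moved with both the side and the medium, and their part in the results for the p53 genes was not tested. hCG and control libraries occupied different rows of the plate, so medium and plate row cannot be told apart.

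Promoters of 3 members that were higher on the ruptured side in both media, Cdkn1a, Ccng1 and Bax, and that of the feedback gene Mdm2 are shown first, because p53 acts by binding such DNA. They are 300-base windows from 250 bases before to 50 bases after a RefSeq transcript start (GRCm38.p6), written 5′ to 3′ on the strand of the gene, and 9 of the 10 members had a window in the table. The p53 decamer, the motif of which p53 binds a pair, was searched on both strands. Capitals mark each match.
Cdkn1a, plus strand, chr17:29090729-29091028: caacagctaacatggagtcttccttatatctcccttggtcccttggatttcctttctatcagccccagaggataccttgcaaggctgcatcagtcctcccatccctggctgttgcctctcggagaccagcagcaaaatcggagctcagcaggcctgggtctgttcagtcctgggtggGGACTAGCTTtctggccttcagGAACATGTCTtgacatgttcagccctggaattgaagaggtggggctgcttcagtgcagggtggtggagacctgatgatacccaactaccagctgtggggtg
Ccng1, minus strand, chr11:40755237-40755536: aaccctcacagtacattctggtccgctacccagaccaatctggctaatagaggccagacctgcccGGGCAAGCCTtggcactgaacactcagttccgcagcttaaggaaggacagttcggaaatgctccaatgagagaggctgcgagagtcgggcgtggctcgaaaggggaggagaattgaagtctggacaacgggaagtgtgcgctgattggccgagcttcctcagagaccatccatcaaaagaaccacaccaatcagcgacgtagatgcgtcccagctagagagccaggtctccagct
Bax, minus strand, chr7:45466849-45467148: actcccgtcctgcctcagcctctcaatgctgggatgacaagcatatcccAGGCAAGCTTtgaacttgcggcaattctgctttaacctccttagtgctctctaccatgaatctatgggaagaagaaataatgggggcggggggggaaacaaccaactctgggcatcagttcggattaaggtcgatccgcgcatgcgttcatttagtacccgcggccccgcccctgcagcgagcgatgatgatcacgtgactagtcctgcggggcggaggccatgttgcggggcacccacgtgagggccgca
Mdm2, minus strand, chr10:117710709-117711008: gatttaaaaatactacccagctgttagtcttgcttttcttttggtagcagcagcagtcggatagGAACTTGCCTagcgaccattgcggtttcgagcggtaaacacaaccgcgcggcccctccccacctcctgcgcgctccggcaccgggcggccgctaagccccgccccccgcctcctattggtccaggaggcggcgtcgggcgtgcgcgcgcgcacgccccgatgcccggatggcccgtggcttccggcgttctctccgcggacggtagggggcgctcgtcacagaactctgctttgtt

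The Cdkn1a window held a pair of matching decamers, ggactagctt beginning 73 bases and gaacatgtct beginning 51 bases before the start, with 12 bases between them. Directly after gaacatgtct, with no base between, stands tgacatgttc, which departs from the decamer only at its first base and was therefore not marked. Which of these stretches p53 binds was not tested. A pair with at most 13 bases between its decamers occurred in 0.0731% of all 32851 promoter windows. Ccng1, Bax and Mdm2 each held a single decamer, at 185, 201 and 186 bases before the start, and the Trp53 window also held 1. At least 1 decamer was present in 8.36% of all windows. The windows of Phlda3, Btg2, Gdf15 and Bbc3 had no match to these letters, which says nothing of sites further away. A second window of Cdkn1a, at a transcript start further downstream (chr17:29093519-29093818), had no match either.

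**Figure D1:**
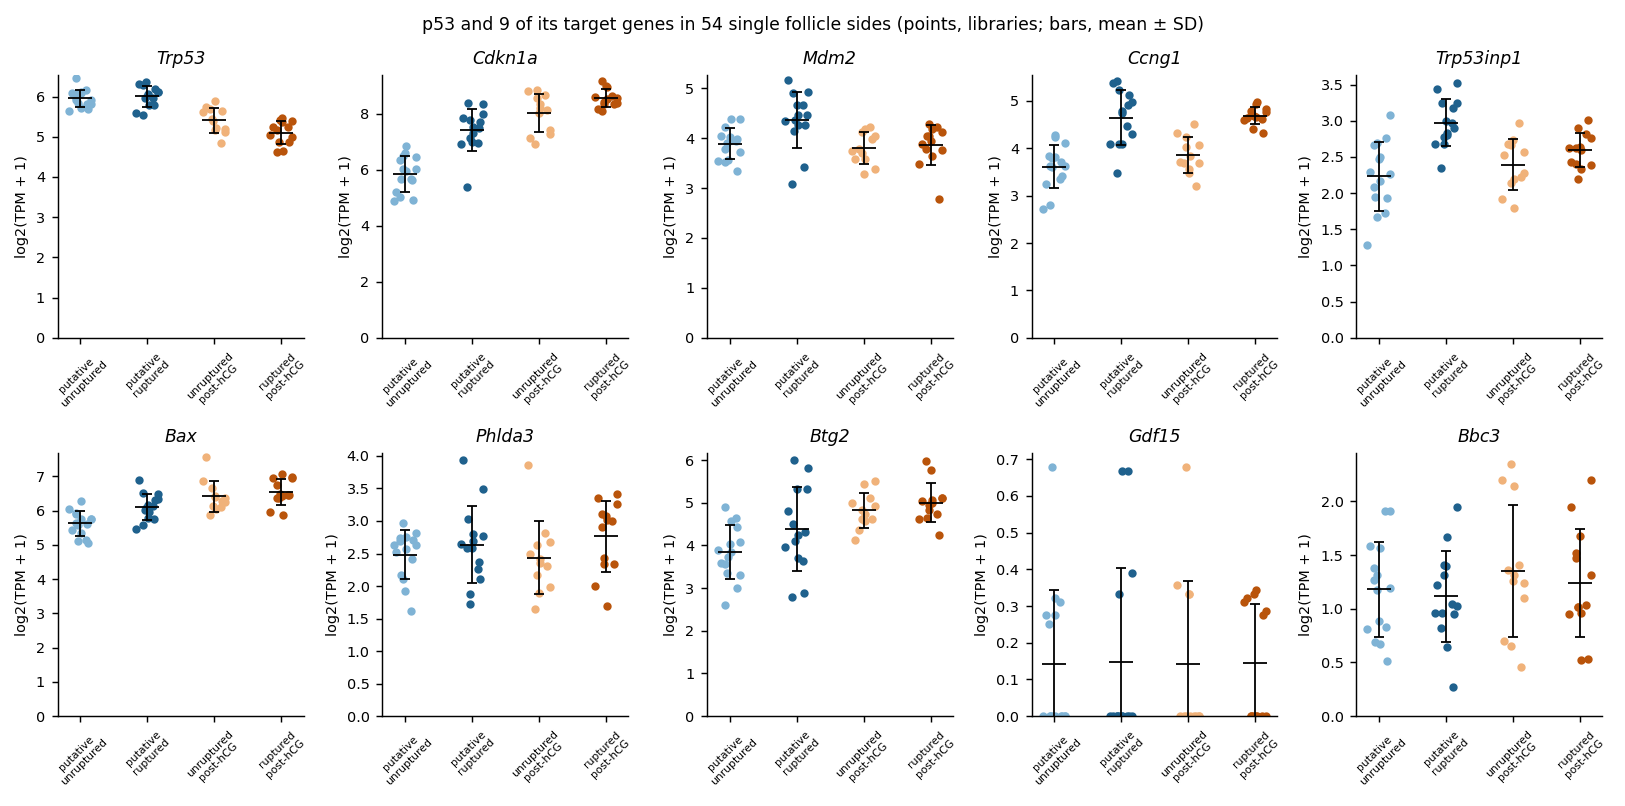
Levels of the 10 genes as log2(TPM + 1), with points for single libraries and bars for the mean ± SD of each of the 4 groups. Cdkn1a climbed from a group mean of 5.85 on the putative unruptured side to 8.55 on the ruptured side post-hCG, Trp53 was lower in both hCG groups, and Gdf15 lay at or near 0.

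Before any hCG, the putative ruptured side carried more transcript of 5 of the 8 testable p53 genes. Cdkn1a was 3.07-fold, Ccng1 2.27-fold, Trp53inp1 1.86-fold, Bax 1.50-fold and Mdm2 1.36-fold higher than on the putative unruptured side. Trp53 itself differed by a log2 fold change of only 0.13 ± 0.09 (SE), with an adjusted p of 0.365. All adjusted p-values are from edgeR's quasi-likelihood test, corrected over every gene tested in the comparison with the Benjamini-Hochberg method. In this comparison 8.78% of the 9063 genes tested were called higher and 8.74% lower at an adjusted p under 0.05. None of the 8 members was called lower with edgeR, at an unadjusted p under 0.05 or with DESeq2. The median log2 fold change of the 8 members was 0.69, beside -0.01 over all genes. Within plate row G, which holds 5 libraries of each putative side, Cdkn1a was at 1.27 ± 0.41, Trp53inp1 at 0.89 ± 0.26, Ccng1 at 0.69 ± 0.30, Bax at 0.48 ± 0.19 and Mdm2 at 0.37 ± 0.18. No member passed the threshold there, where the lowest of these adjusted p-values was 0.308 and only 3 genes of the whole table passed.

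After hCG, 6 of the 8 testable members were higher on the side that had ruptured. They were Ccng1 at 2.18-fold, Phlda3 at 1.73-fold, Cdkn1a at 1.57-fold, Btg2 at 1.40-fold, Trp53inp1 at 1.37-fold and Bax at 1.34-fold. Here 9.88% of the 8585 genes tested were higher and 11.1% lower, and no member was lower with edgeR, at an unadjusted p under 0.05 or with DESeq2. The members' median log2 fold change was 0.47, beside 0.01 over all genes. This count was sensitive to scale, because 2 members, Ccng1 and Cdkn1a, were called with limma on log2(TPM + 1), and 2, Ccng1 and Phlda3, when counts were scaled by library totals alone. Within plate row C, with 4 unruptured and 5 ruptured libraries, 2 members passed, Bax and Ccng1.

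The response to hCG ran in both directions. On the unruptured side Cdkn1a was 4.55-fold, Btg2 1.86-fold and Bax 1.70-fold higher post-hCG, and Trp53 was 0.67-fold its level without hCG. The 3 members that rose and the 1 that fell stood in a comparison in which 25.3% of 9320 genes were higher and 27.6% lower. On the ruptured side 2 members rose, Cdkn1a at 2.34-fold and Bax at 1.53-fold, and 3 fell, Trp53 to 0.59-fold, Trp53inp1 to 0.80-fold and Mdm2 to 0.80-fold. On that side 29.6% of 8531 genes were higher and 30.4% lower, so the members' counts lay near those of the whole transcriptome in both media comparisons. The 4 comparisons share their groups with one another and are not independent.

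**Figure D2:**
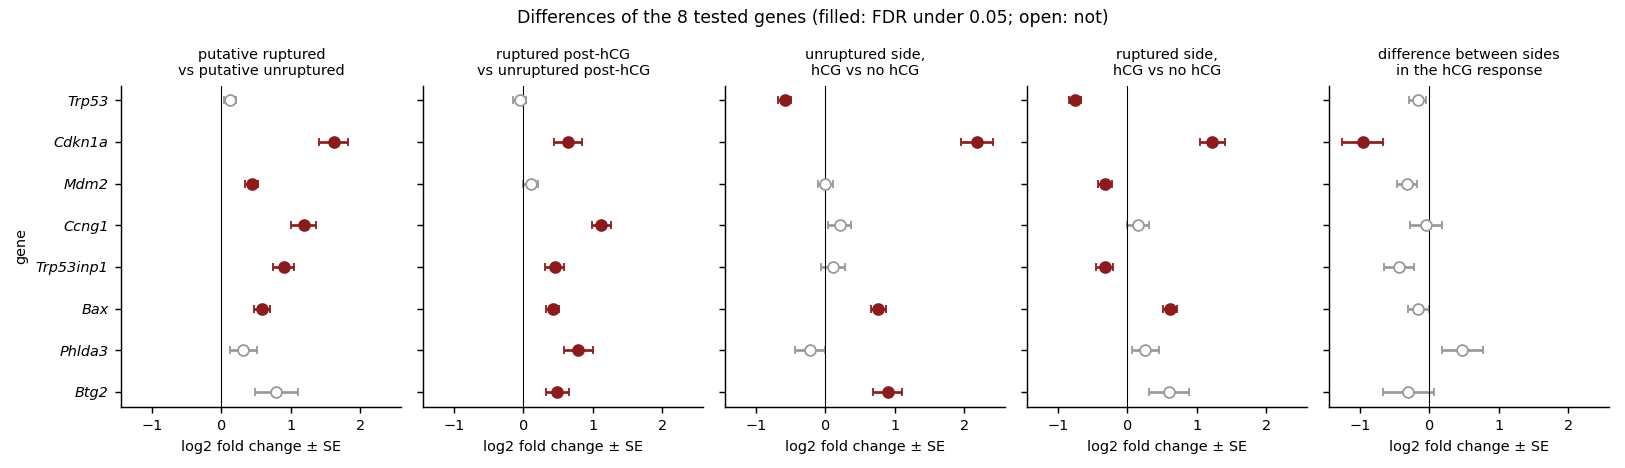
Log2 fold changes ± SE of the 8 testable genes in 5 comparisons, filled where the adjusted p was under 0.05. The side differences that were called, 5 without hCG and 6 post-hCG, lay to the right, and the hCG comparisons had Cdkn1a far to the right at 2.18 and 1.23 and Trp53 to the left at -0.59 and -0.75.

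Trp53 (chr11:69580359-69591873, plus strand) encodes p53. Its TPM ran from 49.0 to 86.8 with a median of 59.7 in the putative unruptured libraries, and from 45.7 to 80.9 with a median of 64.9 in the putative ruptured libraries. It ran from 27.5 to 58.3 with a median of 41.9 in the unruptured post-hCG libraries, and from 23.7 to 43.5 with a median of 35.2 in the ruptured post-hCG libraries. Every ruptured post-hCG library lay below every putative ruptured library, whereas on the unruptured side 9 of 12 libraries post-hCG lay below the whole putative unruptured range. The log2 fold change with hCG was -0.75 ± 0.09 on the ruptured side (adjusted p = 5.01e-09) and -0.59 ± 0.10 on the unruptured side (4.64e-06). The difference between these 2 responses, -0.17 ± 0.13, missed the threshold (adjusted p = 0.461). Post-hCG the sides differed by a log2 fold change of -0.05 ± 0.09 from counts (adjusted p = 0.771) and by -0.31 ± 0.12 with limma on log2(TPM + 1) (adjusted p = 0.0637), where the median gene was at -0.21. The p53 transcript was the only member called lower with hCG on both sides, while Cdkn1a and Bax were called higher on both.

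Mdm2 (chr10:117688875-117710758, minus strand) encodes the ligase that marks p53 for degradation. Its median was 14.3 TPM in the putative unruptured group, with a range from 9.10 to 19.9, and 20.3 TPM in the putative ruptured group, with a range from 7.47 to 34.6. Post-hCG the medians were 12.6 TPM on the unruptured side (8.69 to 17.6) and 14.3 TPM on the ruptured side (5.90 to 18.5). The lowest and highest ruptured post-hCG libraries, replicates 7 and 8, had close counts of 62.6 and 68.0. The putative ruptured group was the highest of the 4, and 7 of its 14 libraries exceeded the whole putative unruptured range. The side difference without hCG was 0.44 ± 0.10 (adjusted p = 0.00132), but it missed the threshold with limma on log2(TPM + 1) (adjusted p = 0.0514). With hCG, Mdm2 fell by 0.32 ± 0.10 on the ruptured side (adjusted p = 0.00767). On the unruptured side its log2 fold change was 0.00 ± 0.11, and its sign turned with the scaling. Estimated counts of Mdm2 were not whole numbers in 87.0% of libraries, and the origin of the fractions was not tested.

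Cdkn1a (chr17:29090976-29100727, plus strand) encodes p21, an inhibitor of cyclin-dependent kinases and the best known p53 target. Its TPM ran from 28.4 to 114 with a median of 60.3 in the putative unruptured libraries and from 40.6 to 334 with a median of 182 in the putative ruptured libraries. It ran from 119 to 464 with a median of 286 in the unruptured post-hCG libraries and from 274 to 580 with a median of 369 in the ruptured post-hCG libraries. Without hCG, 13 of 14 putative ruptured libraries lay above the highest putative unruptured library, and replicate 5 alone lay among the unruptured values. All 12 unruptured post-hCG libraries exceeded all 15 putative unruptured ones, and 8 of 13 ruptured post-hCG libraries exceeded all 14 putative ruptured ones. Mean log2(TPM + 1) rose in the order 5.85 ± 0.63, 7.41 ± 0.76, 8.03 ± 0.68 and 8.55 ± 0.32 (SD) over the putative unruptured, putative ruptured, unruptured post-hCG and ruptured post-hCG groups. The putative ruptured and unruptured post-hCG groups overlapped widely, and their difference mixes side and medium and was not tested.

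The side difference of Cdkn1a without hCG was 1.62 ± 0.20 on the log2 scale (adjusted p = 2.61e-06), and it was 1.69 ± 0.18 when putative ruptured replicate 5 was left out. That library had the lowest level of 6 of the 10 members in its group, and its stromal marker sum of 170 TPM was the highest of the group. Post-hCG the side difference was 0.65 ± 0.21 (adjusted p = 0.0244). Within plate row C, the only row that holds both post-hCG sides, the 4 unruptured libraries had a median of 364 TPM and the 5 ruptured libraries one of 334 TPM. The log2 fold change within that row was -0.04 ± 0.21 (adjusted p = 0.939), and the lower Cdkn1a values of the unruptured side lay in row B, with a median of 216 TPM over 8 libraries. The rise with hCG was 2.18 ± 0.22 on the unruptured side (adjusted p = 2.37e-09) and 1.23 ± 0.18 on the ruptured side (9.92e-07). The 2 responses differed by -0.96 ± 0.30 (adjusted p = 0.0302), which made Cdkn1a the only member called in the interaction of side and medium, where 4.09% of 10013 genes were called higher and 4.56% lower. It was not called there without an expression filter, at an adjusted p of 0.0740, and within plate rows C and G the difference was -1.28 ± 0.50 (adjusted p = 0.417). A short gene model on the opposite strand, AC167363.2, overlaps Cdkn1a, and libraries of this kind do not keep the strand.

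**Figure D3:**
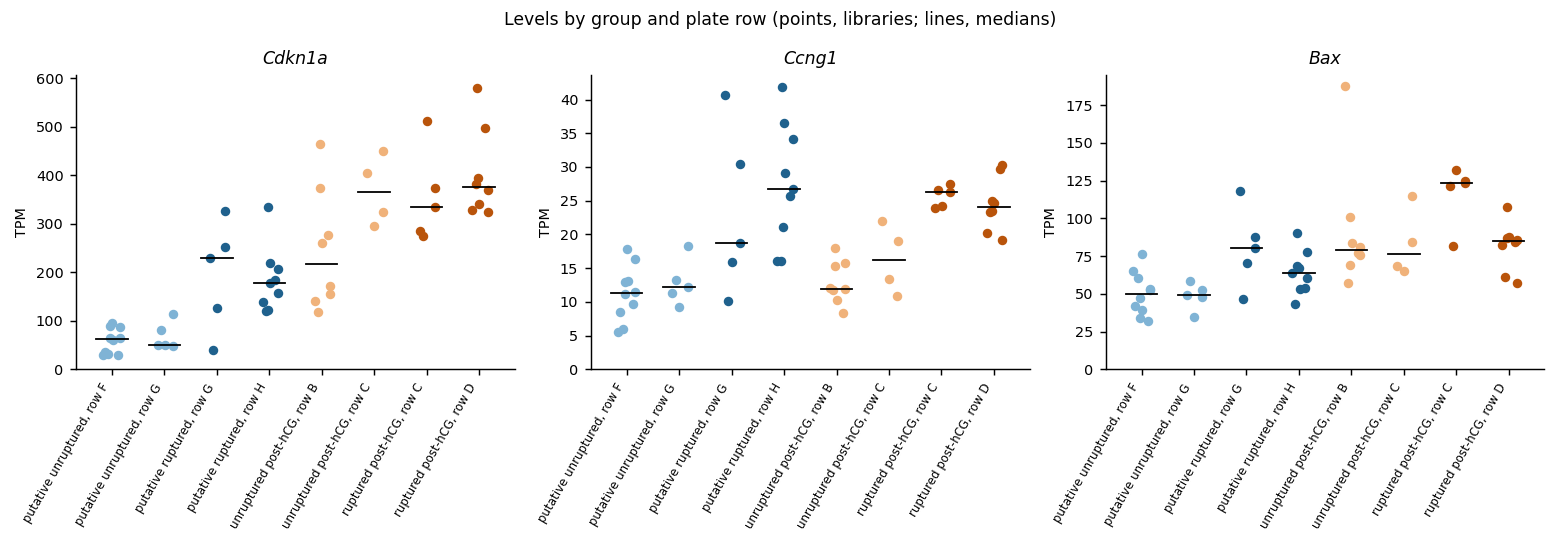
TPM of Cdkn1a, Ccng1 and Bax by group and plate row, with points for libraries and lines for medians. The 5 putative ruptured libraries of row G reached a Cdkn1a median of 229 TPM against 50.2 TPM for the 5 putative unruptured libraries of that row, and the Cdkn1a ranges of both sides overlapped in rows G and C, while in row C the 5 ruptured post-hCG libraries lay above all 4 unruptured ones for Ccng1.

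Ccng1 (chr11:40748552-40755311, minus strand) encodes cyclin G1, which takes part in the feedback on p53 through Mdm2. Its medians were 11.4 TPM on the putative unruptured side (5.57 to 18.3) and 26.2 TPM on the putative ruptured side (10.2 to 41.9). Post-hCG they were 12.7 TPM on the unruptured side (8.29 to 22.0) and 24.7 TPM on the ruptured side (19.1 to 30.3). Ccng1 thus separated the sides at nearly the same levels in both media, with 10 of 14 and 11 of 13 libraries above the whole range of the opposite side. The side differences were 1.18 ± 0.18 without hCG (adjusted p = 1.91e-05) and 1.13 ± 0.14 post-hCG (5.75e-07). It remained called post-hCG within plate row C, at 0.73 ± 0.19 (adjusted p = 0.0191), while within row G without hCG the value was 0.69 ± 0.30 (adjusted p = 0.528). The log2 fold changes with hCG were 0.21 ± 0.16 on the unruptured and 0.16 ± 0.16 on the ruptured side and missed the threshold (adjusted p = 0.304 and 0.394), and both turned negative with library totals alone.

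Btg2 (chr1:134075170-134079120, minus strand) encodes an antiproliferative protein that works with the mRNA deadenylation machinery. Putative unruptured libraries had a median of 13.4 TPM (5.11 to 29.1) and putative ruptured libraries one of 18.5 TPM (5.88 to 63.1). Post-hCG it ran from 16.6 to 44.4 with a median of 26.7 on the unruptured side and from 18.1 to 62.3 with a median of 30.7 on the ruptured side. The putative ruptured group was the most variable, with an SD of 0.99 for log2(TPM + 1). Its median was 39.1 TPM in plate row G and 16.1 TPM in row H. hCG was followed by a rise of 0.90 ± 0.21 on the unruptured side (adjusted p = 0.000656), where all 12 libraries exceeded the putative unruptured median. On the ruptured side the value was 0.60 ± 0.29 (adjusted p = 0.0783), and it passed at 0.82 ± 0.25 (adjusted p = 0.00701) without putative ruptured replicate 8, the highest library. The side difference post-hCG, 0.49 ± 0.17 (adjusted p = 0.0364), missed the threshold at 0.39 ± 0.15 (adjusted p = 0.0689) without the highest library, ruptured post-hCG replicate 5. Ruptured post-hCG medians were 33.6 TPM in row C and 26.6 TPM in row D, and unruptured ones 25.7 TPM in row B and 28.3 TPM in row C. Without hCG the sides differed by 0.79 ± 0.31 (adjusted p = 0.0722), and by 0.87 ± 0.30 (adjusted p = 0.0403) without putative ruptured replicate 5.

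Bax (chr7:45461697-45466898, minus strand) encodes a BCL-2 family protein that permeabilizes the outer mitochondrial membrane in apoptosis. Its medians were 49.2 TPM on the putative unruptured side (32.2 to 76.7), 67.8 TPM on the putative ruptured side (43.3 to 118), 78.9 TPM on the unruptured side post-hCG (57.2 to 188) and 87.0 TPM on the ruptured side post-hCG (57.5 to 132). The value of 188 TPM was that of unruptured post-hCG replicate 3, with 132 counts, while replicate 2 of that group had 126 counts at 75.5 TPM. The group medians rose in the same order as those of Cdkn1a, over a smaller span. Bax was higher on the ruptured side by 0.58 ± 0.11 without hCG (adjusted p = 0.000425) and by 0.42 ± 0.10 post-hCG (adjusted p = 0.00148), and within plate row C by 0.52 ± 0.16 (adjusted p = 0.0403). The ruptured post-hCG median was 124 TPM in row C and 85.2 TPM in row D. Unruptured post-hCG medians were 78.9 TPM in row B and 76.4 TPM in row C. With hCG it rose by 0.76 ± 0.11 on the unruptured side (adjusted p = 6.34e-07) and by 0.61 ± 0.10 on the ruptured side (3.82e-06). A second gene model, Gm45808, overlaps Bax on the same strand, and how far it bears on the values of Bax was not tested. Counts of Bax were not whole in 22.2% of libraries, and the origin of the fractions was not tested.

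Trp53inp1 (chr4:11156431-11174379, plus strand) encodes a stress protein that cooperates with p53 in apoptosis and autophagy. Its medians were 3.82 TPM on the putative unruptured side (1.44 to 7.44), 6.64 TPM on the putative ruptured side (4.09 to 10.5), 4.31 TPM on the unruptured side post-hCG (2.47 to 6.82) and 5.16 TPM on the ruptured side post-hCG (3.59 to 7.04). All 14 putative ruptured libraries exceeded the putative unruptured median. The side difference was 0.90 ± 0.16 without hCG (adjusted p = 0.000106) and 0.45 ± 0.14 post-hCG (adjusted p = 0.0138). On the ruptured side Trp53inp1 fell by 0.32 ± 0.12 with hCG (adjusted p = 0.0251), against 0.11 ± 0.17 on the unruptured side (adjusted p = 0.620), a value that turned negative with library totals alone. The fall missed the threshold with the replicate block, at -0.27 ± 0.13 (adjusted p = 0.0787).

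Phlda3 (chr1:135766119-135769136, plus strand) encodes a pleckstrin-homology protein that restrains Akt. Its group medians lay between 4.24 and 6.97 TPM, and single libraries between 2.06 and 14.3 TPM. The ruptured post-hCG group had the highest median and the unruptured post-hCG group the lowest, a side difference of 0.79 ± 0.21 (adjusted p = 0.00588). Ruptured post-hCG libraries split by plate row, with a median of 8.60 TPM in row C (7.41 to 9.62) and 4.24 TPM in row D (2.23 to 7.07). Unruptured post-hCG medians were 3.725 TPM in row B and 5.185 TPM in row C, and Phlda3 did not pass within row C. Without hCG the difference was 0.32 ± 0.20 (adjusted p = 0.297), and neither hCG comparison passed, at -0.22 ± 0.22 for unruptured pieces and 0.26 ± 0.20 for ruptured ones, the latter turning negative with library totals alone.

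Bbc3 and Gdf15 were too low to pass the expression filter of the edgeR test. DESeq2, run without that filter, tested 9 of the 10 members between the sides and all 10 with hCG. Bbc3 (chr7:16308393-16318205, plus strand), which encodes the proapoptotic BH3-only protein PUMA, was detected in all 54 libraries but at group medians between 1.04 and 1.44 TPM, with single libraries from 0.21 to 4.09 TPM. Gdf15 (chr8:70629393-70632456, minus strand), which encodes a secreted stress cytokine, had 25 counts in all. It was counted in 6 of 15 putative unruptured, 4 of 14 putative ruptured, 4 of 12 unruptured post-hCG and 6 of 13 ruptured post-hCG libraries. Summed over each group, Gdf15 came to between 0.196 and 0.243 CPM, where 3 counts in a group correspond to between 0.0871 and 0.122 CPM. Differences of Gdf15 between groups were not detectable at this depth.

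The wider p53 pathway was described from lists of other known targets, 41 genes of cell cycle arrest, apoptosis and metabolism or repair. These lists were chosen with earlier results of these data known, so their counts are descriptions. Pidd1, Plk2, Sesn2, Rps27l and Gtse1, which are among them, were already reported by the study as DNA damage response genes of the putative ruptured side. The study's list also held the member Mdm2, and its oxidative stress genes of that side held the member Trp53inp1. It gave the DNA damage response genes for the putative ruptured side only, whereas Pidd1 was also called post-hCG here. In the edgeR test without hCG, Plk2 missed the threshold (adjusted p = 0.0779) and Gtse1 was not tested. On the putative ruptured side 12 of the 27 other targets that could be tested were higher and 0 were lower with edgeR, or 44.4% against the 8.78% of all genes. At an unadjusted p under 0.05, 14 were higher and 2 lower, where 2713 of all 9063 genes passed in either direction. DESeq2 called 16 higher and 0 lower of 38, without a share of all genes beside it. The median log2 fold change of the 27 was 0.40. Post-hCG, 6 of 22 were higher and 1 lower on the ruptured side, or 27.3% and 4.55% beside 9.88% and 11.1% of all genes, with a median of 0.22. With hCG on the unruptured side 10 of 26 rose and 6 fell, or 38.5% and 23.1% beside 25.3% and 27.6% of all genes, with a median of 0.17. On the ruptured side 5 of 27 rose and 8 fell, or 18.5% and 29.6% beside 29.6% and 30.4% of all genes, with a median of -0.04.

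**Figure D4:**
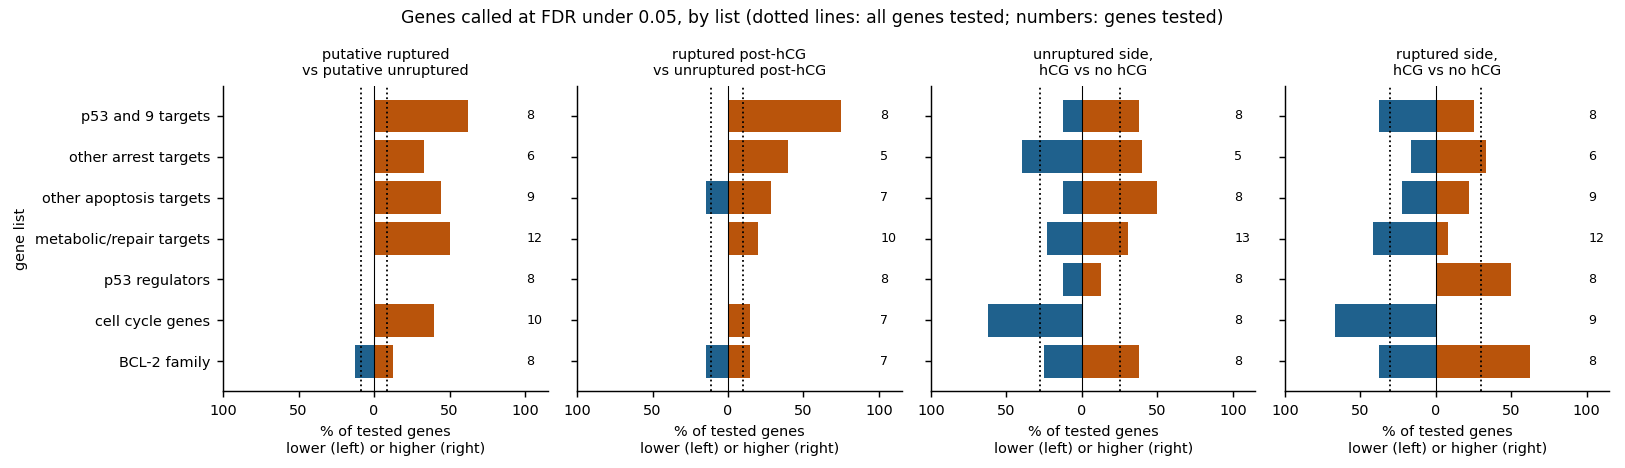
Share of the tested genes of 7 lists called lower (left) or higher (right) at an adjusted p under 0.05 in 4 comparisons, with dotted lines at the share of all genes tested and the number of genes tested at the right. The 3 lists of other p53 targets point to the right without hCG. The list of cell cycle genes points right between the sides, with 4 of 10 genes without hCG and 1 of 7 post-hCG, and left in both hCG comparisons.

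Among the arrest targets, Psrc1, which encodes a spindle protein, was 1.46 ± 0.27 higher on the log2 scale on the putative ruptured side (adjusted p = 0.000255). Zmat3, which encodes an RNA-binding protein, was 0.77 ± 0.15 higher there (adjusted p = 0.000508) and 0.58 ± 0.15 higher on the ruptured side post-hCG (adjusted p = 0.00410). The Polo-like kinase gene Plk3 rose with hCG by 2.07 ± 0.22 on the ruptured and 0.65 ± 0.24 on the unruptured side, and Plk2 fell, at -2.20 ± 0.32 and -1.32 ± 0.23. The difference between the 2 Plk3 responses passed the test, at 1.42 ± 0.34 (adjusted p = 0.00494). Ptp4a3, a phosphatase gene, rose with hCG by 0.57 ± 0.13 on the unruptured and 0.45 ± 0.16 on the ruptured side, and Gadd45a fell on the unruptured side by 0.65 ± 0.27.

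Among the apoptosis targets, 4 of 9 were higher on the putative ruptured side, where 8.78% of all genes were. Eda2r, a receptor of the TNF receptor family, was higher by 1.53 ± 0.24 (adjusted p = 3.04e-05), and Pidd1, which encodes a death-domain protein that activates caspase-2, by 1.21 ± 0.25 (adjusted p = 0.000744). Pidd1 was also higher on the ruptured side post-hCG, by 0.78 ± 0.20, as was the nuclease gene Aen, by 0.76 ± 0.10 (adjusted p = 5.75e-07). The executioner caspase gene Casp6 was lower there by a log2 fold change of -0.55 ± 0.13. With hCG the death receptor gene Tnfrsf10b rose by 0.81 ± 0.18 on the unruptured side and had a value of -0.08 ± 0.14 on the ruptured side, and these responses differed by -0.89 ± 0.23 (adjusted p = 0.00894). Bid, which encodes a BH3-only protein, fell on both sides, at -0.59 ± 0.22 and -1.46 ± 0.20, and Eda2r fell by 1.15 ± 0.23 on the ruptured side.

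Of the targets in metabolism and repair, 6 of 12 were higher and none lower on the putative ruptured side with edgeR, DESeq2 or an unadjusted p under 0.05. They were led by Sesn2, a sestrin that restrains mTORC1, at 1.02 ± 0.18, and by the translesion polymerase gene Polk at 0.85 ± 0.20. With hCG the strongest rise was that of Fdxr, the ferredoxin reductase that passes electrons to the mitochondrial cytochromes P450 of steroid synthesis. Fdxr rose by 3.16 ± 0.20 on the unruptured side (adjusted p = 1.94e-14) and 3.48 ± 0.16 on the ruptured side (4.27e-19), and it was 0.61 ± 0.10 higher on the ruptured side post-hCG. Ephx1, an epoxide hydrolase gene, and Rap2b, a small GTPase gene, went the other way on both sides, by -1.96 ± 0.38 and -1.97 ± 0.15 on the unruptured and -2.46 ± 0.26 and -2.31 ± 0.16 on the ruptured side. The targets of p53 in this list therefore moved in opposite directions with hCG.

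Beside Mdm2 and Ccng1, other regulators of p53 were taken as a list of their own. Of its 8 tested genes, 0 were called in either direction without hCG or post-hCG by edgeR or DESeq2, and at an unadjusted p under 0.05 there were 1 higher and 2 lower without hCG and 1 higher post-hCG. With edgeR 8.78% of all genes were higher and 8.74% lower without hCG, and 9.88% and 11.1% post-hCG. With hCG on the ruptured side 4 rose and 0 fell, beside 29.6% and 30.4% of all genes, with 4 and 0 also at an unadjusted p under 0.05 and 3 and 1 of 10 in DESeq2. The phosphatase gene Ppm1d, itself a p53 target, rose by 0.81 ± 0.14 (adjusted p = 3.75e-06), and Hipk2, a kinase gene whose product phosphorylates p53, rose by 0.55 ± 0.10 there and by 0.94 ± 0.13 on the unruptured side. Ccng2 fell by 0.59 ± 0.20 on the unruptured side. None of the 3 tested genes of damage kinases was called in the sides without hCG or in hCG on the unruptured side, nor the 1 tested gene in the other comparisons of sides and media, with edgeR or DESeq2, and a single unadjusted p fell under 0.05, with hCG on the ruptured side. The p53 relatives Trp63 and Trp73 were too low to pass the expression filter of the edgeR test. DESeq2 tested 1 of them, with hCG on the unruptured side, and did not call it.

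Cell cycle genes were among those higher on the putative ruptured side, as Cdkn1a was. Of 10 tested genes known to be lowered by p53 through p21, 4 were higher and 0 lower on the putative ruptured side, where 8.78% and 8.74% of all genes were, among them the topoisomerase gene Top2a at 1.29 ± 0.35 and the mitotic kinase gene Plk1 at 1.11 ± 0.36. At an unadjusted p under 0.05 there were 5 higher and 1 lower, where 2713 of all 9063 genes passed in either direction. DESeq2 called 8 higher and 0 lower of 16, without a share of all genes beside it. The cyclin genes Ccnb2 and Ccnb1 were higher as well, by 1.60 ± 0.42 and 1.54 ± 0.32, and Ccnd3 was at -0.61 ± 0.15. Post-hCG 1 of 7 tested genes of the p21 list was higher on the ruptured side, Cdc20 at 1.35 ± 0.27, and 0 were lower. Of all genes 9.88% were higher and 11.1% lower there. The cyclin genes Ccnb1 and Ccna2 were also higher there, by 1.57 ± 0.38 and 1.495 ± 0.35, and Ccnd2 was lower, at -0.53 ± 0.17. With hCG 5 of 8 tested genes of the p21 list fell on the unruptured and 6 of 9 on the ruptured side, beside 27.6% and 30.4% of all genes. With edgeR 0 rose, also at an unadjusted p under 0.05, beside 25.3% and 29.6% of all genes. The replication helicase genes Mcm5 and Mcm6 fell, at -1.62 ± 0.29 and -1.15 ± 0.15 on the unruptured side, as did Mcm3 and Mcm6 at -1.15 ± 0.24 and -1.01 ± 0.16 on the ruptured side. DESeq2 called 1 gene higher and 6 lower on the unruptured side, and 0 higher and 10 lower on the ruptured side. Among the other inhibitors of cyclin-dependent kinases, Cdkn2d rose with hCG by 1.59 ± 0.18 and 1.71 ± 0.18 on the unruptured and ruptured sides, and Cdkn1b fell, at -0.48 ± 0.17 and -0.996 ± 0.17.

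In the BCL-2 family, to which Bax belongs, most calls were made with hCG. The antiapoptotic gene Bcl2 fell with hCG, with log2 fold changes of -3.00 ± 0.27 on the unruptured and -3.13 ± 0.34 on the ruptured side, whereas the antiapoptotic Bcl2l1 rose by 1.02 ± 0.12 and 1.13 ± 0.13. The BH3-only gene Bmf rose by 2.09 ± 0.18 and 1.90 ± 0.21, and the BH3-only gene Bcl2l11 fell, at -1.82 ± 0.26 and -2.21 ± 0.20. Pro- and antiapoptotic genes were thus found in both directions, with 3 of 8 higher and 2 lower on the unruptured side (25.3% and 27.6% of all genes) and 5 of 8 higher and 3 lower on the ruptured side (29.6% and 30.4% of all genes). Between sides the list gave 1 gene higher and 1 lower in each medium, of 8 tested without hCG and 7 post-hCG. These counts lay near those of all genes, of which 8.78% were higher and 8.74% lower without hCG, and 9.88% and 11.1% post-hCG. Bok, a relative of Bax, was higher on the ruptured side by 1.11 ± 0.18 without hCG and 0.72 ± 0.12 post-hCG, and Mcl1 was at -0.42 ± 0.14 without hCG and Bmf at -0.40 ± 0.14 post-hCG.

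**Figure D5:**
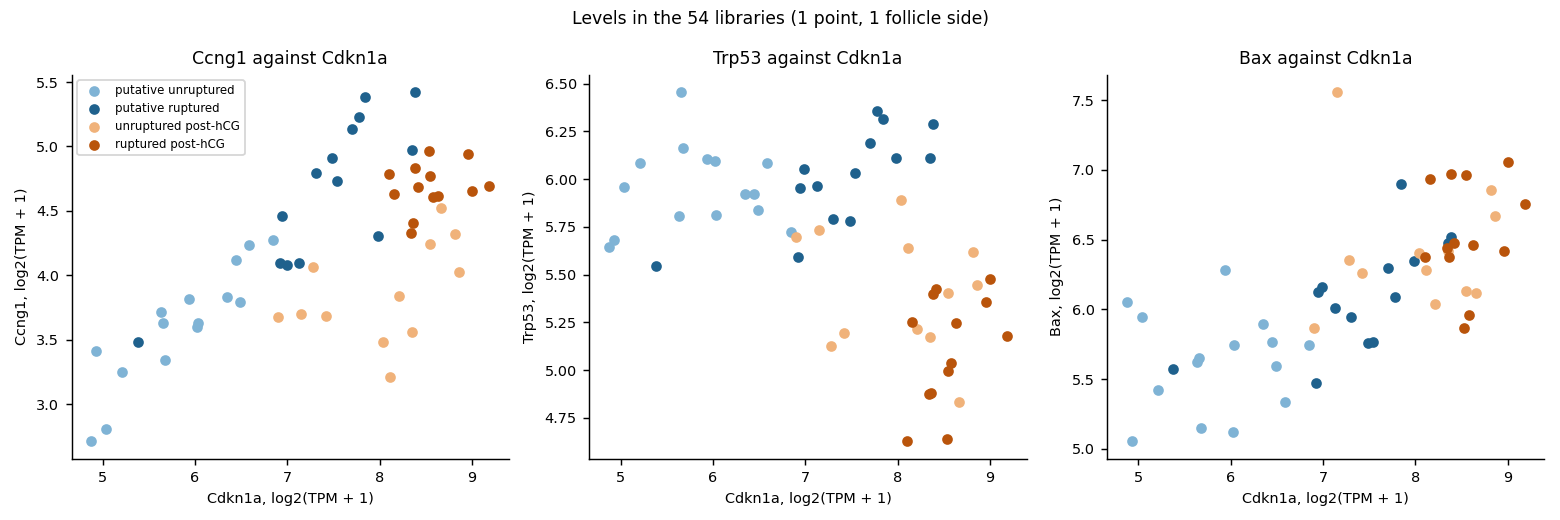
Ccng1, Trp53 and Bax against Cdkn1a as log2(TPM + 1), with a point for each of the 54 libraries colored by group. Ccng1 followed Cdkn1a within both groups without hCG, with r of 0.90 and 0.82, and 9 of 12 unruptured and 13 of 13 ruptured libraries post-hCG lay below the Trp53 range of their side without hCG.

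Whether the members varied together was asked within each group, since the groups themselves lay apart. The 9 other members gave 36 correlations with Cdkn1a, and 4 passed an adjusted p of 0.05 in permutation tests of Pearson's r. Among the 15 putative unruptured libraries Ccng1 followed Cdkn1a with r = 0.90 (permutation p = 2e-05, adjusted 0.00072) and Spearman's rho = 0.88 (permutation p = 7e-05, adjusted 0.00252), and r was 0.91 without the 2 libraries farthest from the Cdkn1a median. Among the 14 putative ruptured libraries Ccng1 gave r = 0.82 (permutation p = 0.00028, adjusted 0.00504), rho = 0.78 (adjusted 0.0174 by permutation) and 0.65 without 2 libraries. In that group Trp53 gave r = 0.77 (permutation p = 0.0007, adjusted 0.0084), rho = 0.80 (adjusted 0.0158) and 0.62 without 2 libraries, and Trp53inp1 gave r = 0.77 (permutation p = 0.00094, adjusted 0.00846), rho = 0.72 (adjusted 0.0386) and 0.62. By rank Bax passed as well, with rho = 0.76 (adjusted 0.0174 by permutation), where its r of 0.68 missed (adjusted 0.0518 by permutation). On log2 CPM 4 correlations passed again, but in the putative ruptured group they were Ccng1, Mdm2 and Bax, while Trp53 gave r = 0.59 and Trp53inp1 r = 0.45. No correlation passed in either post-hCG group, where r for Ccng1 was 0.44 in the unruptured and 0.23 in the ruptured libraries. A test of the difference between groups was not made, and libraries of a group also share variation in tissue makeup.

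Among 9887 other genes whose mean level reached 1 TPM, those closest to Cdkn1a in the 4 centred group means of log2(TPM + 1) were Gramd1b, Htra1 and Hsd3b1, at Euclidean distances of 0.25, 0.39 and 0.43. Gramd1b, which encodes a sterol transfer protein, went from a mean of 3.48 on the putative unruptured side to 5.10, 5.89 and 6.06 in the putative ruptured, unruptured post-hCG and ruptured post-hCG groups. The likeness rests on 4 group means and is a description.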

How the data were processed

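The authors prepared paired-end Smart-Seq2 libraries, aligned reads with HISAT2 to GRCm38 (mm10) and deposited a table of estimated counts and a table of TPM per gene. The counting program and annotation, and whether the tables precede the batch correction described by the study, are not given in the sources used here. Deposited TPM added up to 585982 to 678417 per library over the genes present. Estimated counts were rounded and tested with edgeR 4.0.16 (R 4.3.3; TMM scaling, filterByExpr at 10 counts and 15 in total, robust quasi-likelihood test), with each comparison fitted on its own groups. A positive log2 fold change means higher on the ruptured side or post-hCG. limma 3.58.1 on log2(TPM + 1) and DESeq2 1.42.0 were alternatives. At an unadjusted p under 0.05, 2713 of 9063 genes passed between the sides without hCG and 2832 of 8585 post-hCG. With hCG, 5382 of 9320 passed on the unruptured and 5430 of 8531 on the ruptured side. DESeq2 counts of list genes are given without the share of all genes. Correlations used 100000 permutations. Fits were tested on simulated data. Replicate numbers were not taken as pairs, since same-numbered libraries did not deviate together. Gene positions are from GENCODE vM21. All 10 members were named, and from each list up to 2 called genes per direction and comparison with the largest changes. The 3 genes nearest in pattern were sought for the 2 members with the widest range of group means, Cdkn1a and Btg2, and those for Btg2 are not reported here. Members and lists were chosen with earlier results of these data known, so the counts are descriptions.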

Additional observations from a re-analysis of the deposited data

Results flagged for a closer look

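The edgeR test of the interaction of side and medium called 867 of 10013 genes, 4.09% higher and 4.56% lower. Among the p53 genes and the lists other than cell type markers, the responses of 8 genes to hCG differed between the follicle sides, where a negative value means a smaller rise or a larger fall on the ruptured side. Cdkn1a had -0.96 ± 0.30 (adjusted p = 0.0302), Plk3 1.42 ± 0.34 (adjusted p = 0.00494), Tnfrsf10b -0.89 ± 0.23 (adjusted p = 0.00894), Cdk2 -0.50 ± 0.16 (adjusted p = 0.0442) and Mcl1 0.77 ± 0.19 (adjusted p = 0.00671). Of the comparison lists, the immediate early genes gave Jun at -1.17 ± 0.31 (adjusted p = 0.0108) and Fosl2 at -0.70 ± 0.21 (adjusted p = 0.0287), and the ATF4 stress genes gave Shmt2 at -0.75 ± 0.20 (adjusted p = 0.0110).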

How the results depend on the processing

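Of 511 recomputed log2 fold changes of single members, 455 kept their direction and side of the threshold, 30 lost the call, 6 gained it and 20 changed sign, none of the 20 past the threshold. Without hCG, 1053 and 1052 genes were called with limma on log2(TPM + 1) and log2(TPM + 0.1), against 1588. Within the shared plate row G (5 against 5 libraries) 0 members and 3 genes were called, although Cdkn1a, Trp53inp1 and Bax stayed at 1.27, 0.89 and 0.48 there, and Trp53 was at -0.077. Post-hCG 2 members were called with library totals only, with either limma scale and within plate row C (4 against 5), where 755 genes were called against 1804. Mdm2 was at -0.039 with library totals and -0.12 within row C, where Cdkn1a was at -0.039. In the interaction 0 members were called without an expression filter or within the shared rows, where 14 genes were called against 867 and Trp53, Ccng1, Bax and Phlda3 were at 0.051, 0.066, 0.066 and -0.17. With hCG on the unruptured side Mdm2 changed sign with library totals (-0.23), no filter (-0.012), a mean of at least 20 counts (-0.00057), thinning (-0.024), limma (-0.083 and -0.089) and without unruptured post-hCG replicate 11 (-0.061). With library totals Ccng1 and Trp53inp1 were at -0.032 and -0.13 on that side, and Ccng1 and Phlda3 at -0.18 and -0.058 on the ruptured side. The cause of these changes was not tested. Library totals moved the median of all genes to -0.14 post-hCG, and to -0.25 and -0.33 with hCG on the unruptured and ruptured sides. They split the calls into 398 higher and 1823 lower post-hCG (848 and 956 in the test reported), 1451 and 3815 (2358 and 2573) and 1372 and 4235 (2525 and 2590) with hCG, 578 and 877 (796 and 792) without hCG and 218 and 635 (410 and 457) in the interaction. limma on log2(TPM + 1) gave 213 and 2139 post-hCG, 2202 and 1618 and 1564 and 3001 with hCG, and 85 and 674 in the interaction. DESeq2 called 6 and 6 members between the sides, 4 and 5 with hCG and 1 in the interaction. The replicate block kept 5 and 6 members called between the sides and 4 and 5 with hCG. On the ruptured side with hCG it lost Trp53inp1 (-0.27) and gained Btg2 (0.69), and in the interaction it put Ccng1 at 0.035. Same-numbered libraries deviated together with correlations from -0.19 to 0.31, of which 6 of 76 were over 0.1, and few correlated best with their own number. The alternatives without robust estimation, without single libraries and without putative ruptured replicate 5 were chosen after seeing the data, and without replicate 5 members called were 6 and 5 and genes called 1607, 5018 and 910.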

Other observations

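The comparison lists of other stress responses gave values beside those of the p53 targets. Of the ATF4 stress genes, 7 of 9 tested rose with hCG on the unruptured side and 7 of 8 on the ruptured side, and 0 fell with edgeR, DESeq2 or an unadjusted p under 0.05. The mitochondrial folate enzyme gene Mthfd2 led them, with 2.002 ± 0.17 and 2.40 ± 0.13. These counts stood beside 25.3% and 29.6% of all genes that rose. Between the sides 1 of 8 was higher without hCG, Sesn2, which is also a p53 target, and post-hCG 1 of 9 was higher, Mthfd2 at 0.42 ± 0.12, and 2 were lower, Shmt2 at -0.61 ± 0.14 and Vldlr at -0.64 ± 0.12. The immediate early genes split, with Jun at -3.22 ± 0.24 and -4.39 ± 0.23 with hCG on the unruptured and ruptured sides and Fosl1 rising by 3.21 ± 0.25 and 3.76 ± 0.26. Of 13 immediate early genes tested between the sides without hCG, 0 were called by edgeR, with 4 higher and 1 lower at an unadjusted p under 0.05, and DESeq2 called 1 higher. Post-hCG 1 of 12 was higher and 3 were lower on the ruptured side. The side counts of both lists stood beside 8.78% of all genes higher and 8.74% lower without hCG, and 9.88% and 11.1% post-hCG.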
